A study of Mus musculus with 8 samples.

Results

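The genes described here are those of the CCR7 programme of mature dendritic cells: Ccr7, Fscn1, Ccl17, Ccl22, Cd83, Relb and Cacnb3. The list is one of genes known to act together in these cells, and it was drawn up with earlier results of these data known. Its probe sets were chosen by their mean level over all 8 arrays, the highest for each symbol. Each of the 6 genes found had 1 probe set of its own among the 22180 genes measured, so this choice had no effect. No probe set with Cacnb3 as its single symbol was found, and Cacnb3 was not analysed here. The transcripts were measured on 8 Affymetrix arrays, each carrying RNA of the CD45+ CD11b+ Ly6Chi cells sorted by flow cytometry from the tumour of 1 mouse. This is the surface profile of inflammatory monocytes and of macrophages that arise from them. The hosts were C57BL/6 females aged 8 weeks. Each carried a subcutaneous tumour, outside the pancreas, of the single pancreatic cancer line 152, grown for 14 days. The line came from tumours of KPC mice, with the alleles KrasLSL-G12D/+ and Trp53LSL-R172H/+ switched on by Pdx1-Cre, which acts in the pancreas. These alleles were carried by the implanted tumour cells of both groups, and the labels give the hosts no allele of their own. In the irradiated group, 4 mice received 20 Gy to the tumour on a small animal irradiator, and in the sham group 4 mice received a sham treatment. All tumours were taken 1 day later.

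CCR7 is a chemokine receptor that guides mature dendritic cells, and naive T cells, towards the chemokines CCL19 and CCL21 in lymphatic vessels and lymph nodes. A dendritic cell that matures gains CCR7 together with the actin-bundling protein fascin, the surface protein CD83, the T cell attracting chemokines CCL17 and CCL22, and the NF-kB subunit RelB. Monocytes can take on dendritic cell features in inflamed tissue, and none of these genes is restricted to dendritic cells: T and B cells also carry CCR7, macrophages also make CCL17, CCL22 and CD83, and tumour cells can carry fascin.

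Pairwise correlations of the arrays ran from 0.976 to 0.988, and their medians from 4.68 to 4.73 (log2). In limma's moderated test, 0 of the 22180 genes passed an adjusted p of 0.05 (0% called), and 6.07% had an unadjusted p under 0.05, 2.05% higher and 4.03% lower in irradiated mice. The smallest adjusted p of any gene was 0.545. The means of 57.8% of all genes were lower in irradiated mice, with a median difference of -0.03. The groups of 4 did not overlap for 3.68% of all genes. Markers of other cell types were uneven between the arrays. Mean levels of the 21 measured T and NK cell markers ran from 5.27 to 7.53, with the highest values in sham mice 2 and 3, and those of 13 neutrophil markers from 6.18 to 8.73, with the highest in sham mouse 3.

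Mean differences in the CCR7 programme did not all have the same direction, and whether its genes differed from one another was not tested. Of its 6 measured genes, 4 had a lower and 2 a higher mean in irradiated mice, against 57.8% and 42.2% of all genes, with a median difference of -0.09. None passed after adjustment over all genes (adjusted p 0.819 to 0.941 in limma), and the groups overlapped for all 6, where 1.12% of all genes lay wholly higher and 2.56% wholly lower in irradiated mice. Only Ccr7 had an unadjusted p under 0.05, as had 4.03% of all genes in the same direction, and its 95% interval was the only one of the 6 that did not include 0. The other 5 genes spread around 0, with intervals on both sides of it.

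**Figure D1:**
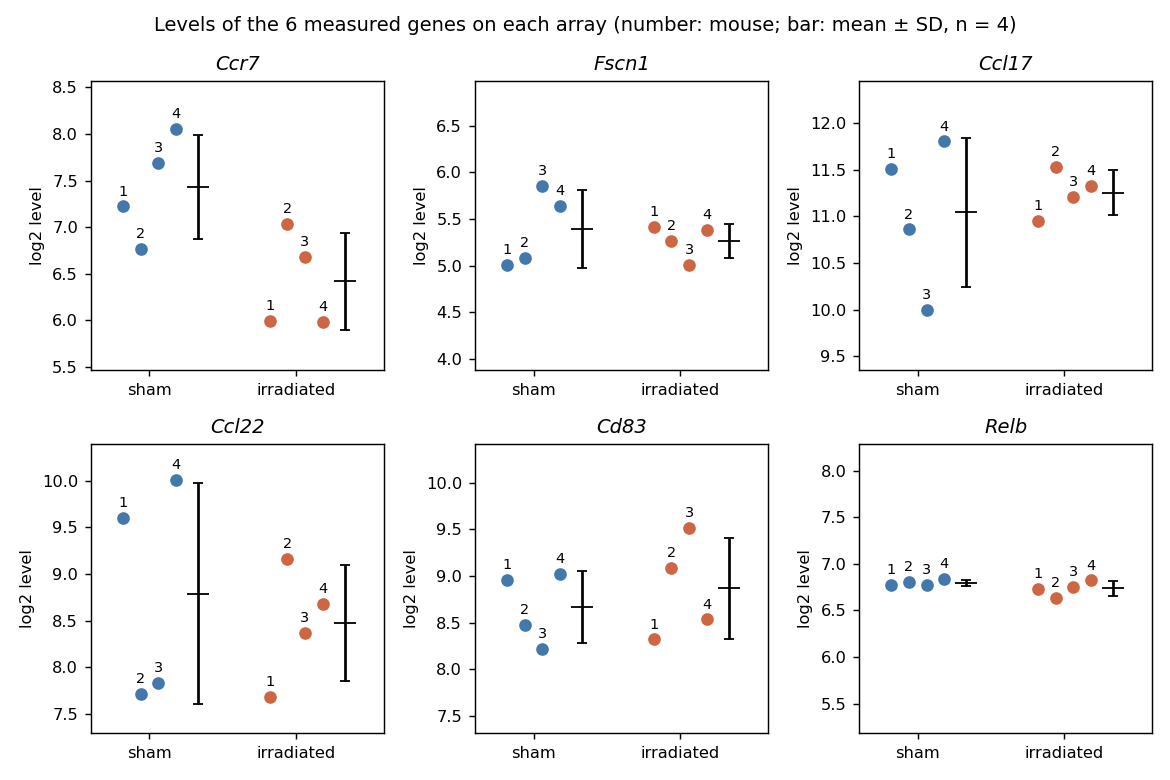
Log2 level of each of the 6 measured genes on each of the 8 arrays, with sham mice in blue and irradiated mice in orange; numbers give the mouse, black bars the mean ± SD (n = 4), and all panels span the same height on the log2 scale. For Ccr7, irradiated mouse 2 alone lies above a sham mouse; for Relb, which hardly varies, irradiated mouse 4 alone does; the groups mix more for the other 4 genes.

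Ccr7, the receptor itself, stood at 7.22, 6.76, 7.69 and 8.05 on the log2 scale in sham animals 1 to 4. It stood at 5.99, 7.03, 6.68 and 5.98 in irradiated animals 1 to 4. Irradiated mice 1 and 4 lay below every other array, sham mouse 4 lay highest, and the groups overlapped only in that irradiated mouse 2 lay above sham mouse 2. In 1 of the 16 pairs of an irradiated and a sham mouse the irradiated mouse was the higher. The group means were 7.43 ± 0.56 in the sham group and 6.42 ± 0.52 in the irradiated group (SD, n = 4 each). The difference was -1.01 ± 0.31 (SE) on the log2 scale, with a 95% interval of -1.69 to -0.33, which is a ratio of 0.496 on the linear scale. Its p in limma was 0.00774 unadjusted and 0.819 after adjustment over the 22180 genes, so the difference did not pass. The unadjusted p and the interval do not allow for the members having been chosen with earlier results of these data known. The difference ranged from -1.24 without sham mouse 2 to -0.81 without sham mouse 4 when each array was left out in turn. With sham mice 2 and 3 both left out, the arrays with the most lymphocyte markers, it was -1.22. Sham mouse 2 was the lowest sham array for Ccr7, and leaving out the pair raised the sham mean, which had to lower the difference. No conclusion on lymphocytes is drawn from that value. In sorted bulk samples, fewer Ccr7-positive cells and less Ccr7 RNA per cell cannot be told apart.

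Markers of other cell types were compared with Ccr7 array by array, and of these cells T and B cells are known to carry CCR7. The T and NK cell markers had list means of 5.35, 7.31, 7.53 and 5.63 in sham animals 1 to 4 and 6.49, 5.35, 5.27 and 6.44 in irradiated animals 1 to 4. Sham mouse 4, highest for Ccr7, was among the arrays low in T and NK markers, while sham mouse 3, next highest for Ccr7, was the highest of all arrays in T and NK, B cell and neutrophil markers. Irradiated mice 1 and 4, lowest for Ccr7, had the highest T and NK markers of their group. For comparison, 57.8% of all genes had a lower mean in irradiated mice, and 4.03% were lower at an unadjusted p under 0.05 in limma. Of the 21 measured T and NK markers 19 had a lower mean in irradiated mice, with a median of -0.52. Of these, 1, the NK receptor gene Klrd1, had an unadjusted p under 0.05. B cell markers had list means of 4.84, 5.17, 5.87 and 4.58 in sham mice and 5.05, 4.87, 4.47 and 4.73 in irradiated mice, with 10 of 11 lower on average and a median of -0.32. Of these, 1 gene, the B cell kinase gene Blk, had an unadjusted p under 0.05 (-0.32 ± 0.11, SE, adjusted p = 0.819 in limma). Its groups did not overlap, and 2.56% of all genes lay wholly lower in irradiated mice. Blk was dim, with a mean of 4.55 over the arrays against a probe set median of 4.70, so its level may be background. Neutrophil markers had list means of 7.32, 7.37, 8.73 and 7.04 in sham mice and 6.18, 6.91, 7.53 and 6.25 in irradiated mice, and 12 of 13 were lower on average with a median of -0.81 and 0 at an unadjusted p under 0.05 in limma. Their lowest arrays, irradiated mice 1 and 4, were also the lowest for Ccr7, and the part of lymphocytes and neutrophils in the Ccr7 difference was not tested.

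The ligand side of the CCR7 axis could be followed only in part. Ackr4, which encodes a receptor that removes CCR7 ligands without signalling, was dim, below the probe set median of 4.70, at 3.74 ± 0.16 in the sham group and 3.56 ± 0.19 in the irradiated group (SD, n = 4 each). Levels this low may be background, and signal over background was not tested. The ligand genes Ccl19 and Ccl21a were not analysed here.

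The chemokine genes Ccl17 and Ccl22 lie next to each other on mouse chromosome 8 with the single protein-coding gene Cx3cl1 between them, in RefSeq's annotation of GRCm38.p6. Both proteins bind CCR4, a receptor of regulatory and helper T cells. A sequence upstream of a start site of each is shown because the pair ordered the arrays alike. Each is the 250 bases before a transcript start in a table made from RefSeq (GRCm38.p6, plus strand, chr8:94745434-94745683 for Ccl22 and chr8:94810203-94810452 for Ccl17), 5′ to 3′, with matches to an NF-kB motif (GGG and CC with 5 bases between them) or a STAT6 motif (TTC and GAA with 4 bases between them) in capitals, on either strand. The start used for Ccl22 is the first base of its annotated gene, whereas that used for Ccl17 lies 1073 bases inside its annotated gene, so the Ccl17 window lies within the gene and is upstream of that start only.
Ccl22: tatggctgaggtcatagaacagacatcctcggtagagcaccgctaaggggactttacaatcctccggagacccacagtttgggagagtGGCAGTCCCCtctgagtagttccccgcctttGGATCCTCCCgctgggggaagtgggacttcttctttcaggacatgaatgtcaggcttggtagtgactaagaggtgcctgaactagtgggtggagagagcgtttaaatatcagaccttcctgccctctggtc
Ccl17: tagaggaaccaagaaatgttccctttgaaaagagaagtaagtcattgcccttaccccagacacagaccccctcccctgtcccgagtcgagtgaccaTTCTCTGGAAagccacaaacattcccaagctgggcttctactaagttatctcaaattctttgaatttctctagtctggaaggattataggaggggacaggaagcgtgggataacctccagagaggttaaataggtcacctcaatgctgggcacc
The window of Ccl22 held 2 matches to the NF-kB motif, both on the minus strand and not overlapping, and none to the STAT6 motif. The window of Ccl17 held 1 match to the STAT6 motif and none to the NF-kB motif. Of the 32851 windows of the same length in the RefSeq table, 45.8% held the NF-kB motif and 5.85% the STAT6 motif, so a match to the former is common. A match describes letters in the window and not a site in use.

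Ccl22, whose product attracts regulatory T cells, stood at 9.60, 7.71, 7.83 and 10.01 in sham animals 1 to 4 and at 7.68, 9.16, 8.37 and 8.68 in irradiated animals 1 to 4. Sham mice 1 and 4 were the highest of all arrays, while sham mice 2 and 3 lay with irradiated mouse 1 at the bottom. The 8 arrays spanned 2.32 on the log2 scale, a 5.00-fold range and the widest of the 6 genes. The group means were 8.79 ± 1.19 and 8.47 ± 0.62 (SD, n = 4 each), a difference of -0.31 ± 0.52 (SE; 95% interval -1.47 to 0.84, adjusted p = 0.941 in limma). This value rested on single arrays. It was 0.09 without sham mouse 4, -0.04 without sham mouse 1, -0.05 without irradiated mouse 1, -0.54 without irradiated mouse 2, -0.63 without sham mouse 3 and -0.67 without sham mouse 2. With sham mice 2 and 3 both left out it was -1.33 (unadjusted p = 0.00495, adjusted p = 0.743 in limma). These were the lowest sham arrays for Ccl22, so leaving them out had to lower the difference. No conclusion is drawn from that value or its p.

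Ccl17, a chemokine for CCR4-bearing T cells made by dendritic cells and macrophages, stood at 11.51, 10.86, 10.00 and 11.80 in sham animals 1 to 4. It stood at 10.95, 11.53, 11.21 and 11.33 in irradiated animals 1 to 4. The irradiated mice lay close together between the extremes of the sham mice, of which mouse 3 was the lowest and mouse 4 the highest array. The group means were 11.04 ± 0.80 and 11.25 ± 0.24 (SD, n = 4 each), a difference of 0.21 ± 0.33 (SE; 95% interval -0.53 to 0.95, adjusted p = 0.939 in limma). Its direction turned without sham mouse 3, to -0.14, and without sham mice 2 and 3 together, to -0.40. Here too these were the lowest sham arrays, so leaving them out had to lower the difference. Sham mice 1 and 4 and irradiated mouse 2 were the 3 highest arrays for both chemokine genes, and sham mice 2 and 3 and irradiated mouse 1 the 3 lowest.

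The arrays low in Ccl17 and Ccl22 were among those with the highest T and NK cell and tumour and stroma markers, but not all were high in neutrophil markers, for which irradiated mouse 1 was the lowest array. Besides the T and NK cell markers given above, the 13 markers of tumour epithelium, fibroblasts and endothelium had list means of 6.82 and 7.40 in sham mice 2 and 3 and 7.34 and 7.01 in irradiated mice 1 and 4. They had list means of 6.07 and 6.57 in sham mice 1 and 4 and 6.49 and 6.25 in irradiated mice 2 and 3. Irradiated mouse 4 was the exception: it was high in these markers but next in order after the 3 highest arrays for both chemokine genes. The part of other cells in the chemokine levels was not tested. Of the receptors, Ccr4 stood at 3.73 ± 0.37 in the sham group and 3.60 ± 0.08 in the irradiated group (SD, n = 4 each), under the median of all probe sets.

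**Figure D2:**
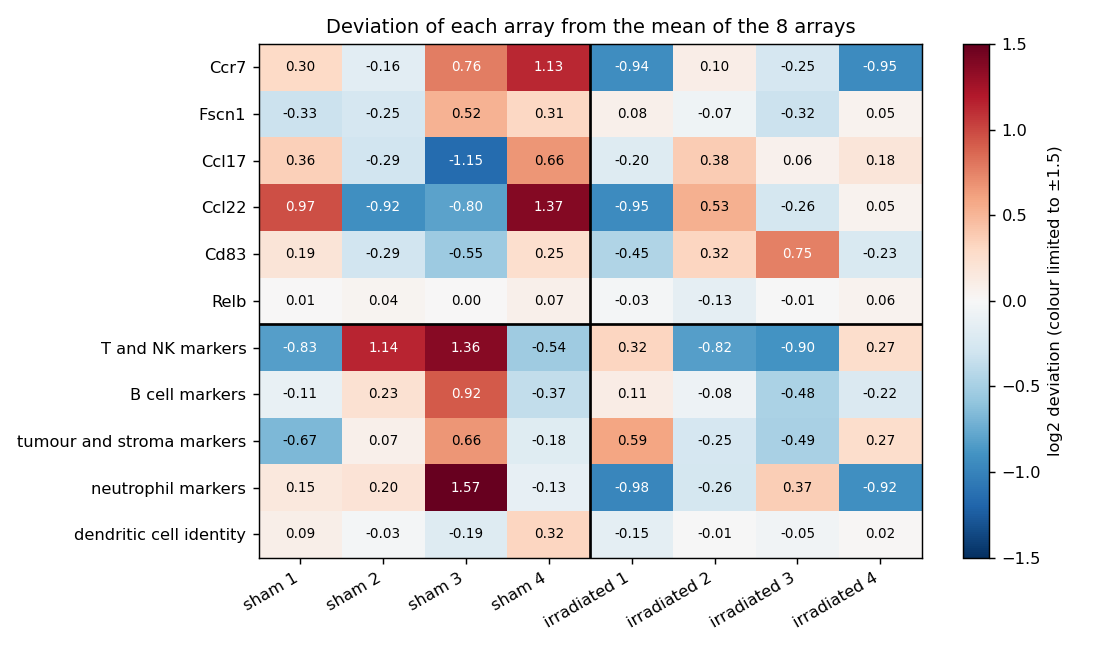
Deviation of each array from the mean of the 8 arrays, on the log2 scale, for the 6 measured genes (above the line) and for the list means of markers of other cell types and of dendritic cell identity (below it); red is above and blue below the mean. Ccl17 and Ccl22 are low in sham mice 2 and 3, where T and NK markers are high, whereas Ccr7 is lowest in irradiated mice 1 and 4 and highest in sham mouse 4.

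Cd83, whose product marks mature dendritic cells and stabilises MHC class II at the surface, stood at 8.96, 8.48, 8.22 and 9.02 in sham animals 1 to 4. It stood at 8.32, 9.09, 9.52 and 8.53 in irradiated animals 1 to 4. Irradiated mice 3 and 2 were the 2 highest arrays and sham mouse 3 and irradiated mouse 1 the lowest, so that the groups overlapped over most of their range. The group means were 8.67 ± 0.39 and 8.87 ± 0.54 (SD, n = 4 each), a difference of 0.20 ± 0.27 (SE; 95% interval -0.40 to 0.80, adjusted p = 0.927 in limma). It was -0.02 without irradiated mouse 3 and -0.12 without sham mice 2 and 3 together. As for Ccl22, sham mice 2 and 3 were the lowest sham arrays, and their removal had to lower the difference.

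Fscn1, which encodes fascin, the protein that bundles actin in the long processes of mature dendritic cells, stood at 5.00, 5.08, 5.86 and 5.64 in sham animals 1 to 4. It stood at 5.41, 5.26, 5.01 and 5.39 in irradiated animals 1 to 4. All irradiated values fell inside the sham range, in which mice 3 and 4 were highest. The group means were 5.40 ± 0.42 and 5.27 ± 0.18 (SD, n = 4 each), a difference of -0.13 ± 0.19 (SE; 95% interval -0.56 to 0.30, adjusted p = 0.937 in limma), or 0.03 without sham mouse 3. Ccr7 was also high in sham mice 3 and 4. The tumour and stroma markers were highest in sham mouse 3 but not high in sham mouse 4, and their part in the Fscn1 level was not tested.

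Relb, which encodes the NF-kB subunit needed for dendritic cell maturation, was the most even of the 6 genes. It stood at 6.78, 6.80, 6.77 and 6.84 in sham animals 1 to 4 and at 6.73, 6.63, 6.76 and 6.82 in irradiated animals 1 to 4. All 8 arrays lay within 0.21 of one another on the log2 scale, and the groups overlapped only through irradiated mouse 4. The difference of -0.06 ± 0.09 (SE) had a 95% interval of -0.26 to 0.14 (adjusted p = 0.934 in limma), and it turned to 0.01 after quantile normalization.

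**Figure D3:**
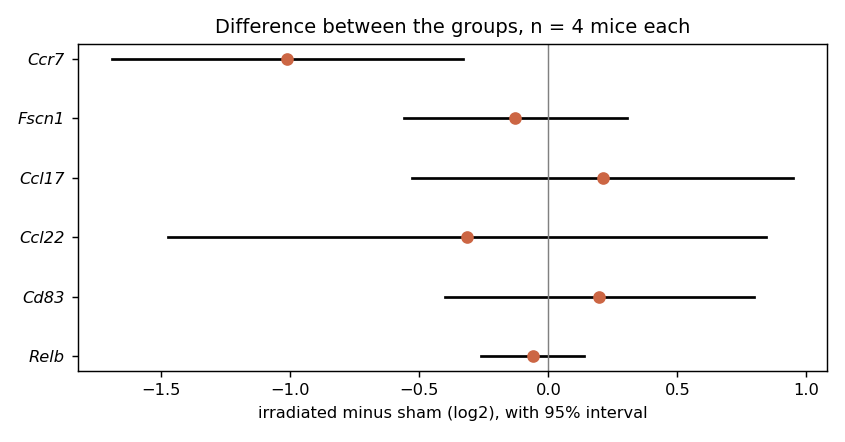
Difference between irradiated and sham mice on the log2 scale for the 6 measured genes, with the 95% interval of limma's moderated fit (n = 4 mice per group). The interval of Ccr7, -1.69 to -0.33, lies below 0, that of Ccl22 is the widest, and that of Relb is the narrowest.

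The pathway that ends in RelB was followed in 14 measured genes, of which 7 had a higher and 7 a lower mean in irradiated mice, with a median of -0.01. None had an unadjusted p under 0.05. Nfkb2, which encodes the p100 precursor whose processed form pairs with RelB, stood at 7.75 ± 0.19 in the sham group and 7.71 ± 0.23 in the irradiated group (SD, n = 4 each). Map3k14, which encodes the kinase NIK that starts this processing, stood at 5.82 ± 0.24 and 5.69 ± 0.36. The 3 genes of the list with the smallest p were Birc2, a ubiquitin ligase that limits NIK (-0.14 ± 0.10, SE), Tnfrsf11a, the receptor RANK (0.21 ± 0.16), and Ltb, which encodes lymphotoxin beta (-0.42 ± 0.33). Ltb differed by 0.25, the other way, without sham mice 2 and 3, its highest sham arrays, whose removal had to raise the difference. Of 8 measured genes of the canonical NF-kB subunits and inhibitors, 5 had a higher and 3 a lower mean, with a median of 0.08 and none at an unadjusted p under 0.05. Rel, which encodes the subunit c-Rel, stood at 10.66 ± 0.39 and 10.73 ± 0.24. Traf3 and Nfkb1 were not analysed here.

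Mean differences of other genes known to be raised in CCR7-positive dendritic cells did not all have the same direction either. Of 37 measured genes, 20 had a higher and 17 a lower mean in irradiated mice, and the median was 0.01, against -0.03 over all genes. At an unadjusted p under 0.05 there were 0 higher and 3 lower, where 2.05% and 4.03% of all genes were called, and 0 passed after adjustment. The 3 were Stat4, Cd200 and Tmem123. Stat4, which encodes the transcription factor that carries interleukin 12 signals, stood at 7.61, 8.46, 8.43 and 7.47 in sham animals 1 to 4 and at 7.39, 6.84, 6.84 and 7.36 in irradiated animals 1 to 4. The groups did not overlap, and 2.56% of all genes lay wholly lower in irradiated mice. Sham mice 2 and 3, highest in T and NK markers, were also highest here. The difference of -0.88 ± 0.25 (SE, adjusted p = 0.819 in limma) was -0.43 without these mice. Removing the highest sham arrays had to shrink it, and the part of T and NK cells in the Stat4 level was not tested. Cd200, the ligand of an inhibitory receptor of myeloid cells, differed by -0.40 ± 0.17 and the surface protein gene Tmem123 by -0.30 ± 0.13 (SE, adjusted p = 0.819 for both in limma). Il12b, which encodes the interleukin 12 subunit p40, stood at 4.52 ± 0.29 and 4.58 ± 0.19 (SD, n = 4 each), under the median of all probe sets.

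The dendritic cell label was checked against genes of dendritic cell identity. Of 17 measured genes, 5 had a higher and 12 a lower mean in irradiated mice (57.8% of all genes were lower), with a median of -0.08 and none at an unadjusted p under 0.05. Zbtb46, a transcription factor of conventional dendritic cells, stood at 4.94 ± 0.41 in the sham group and 5.10 ± 0.16 in the irradiated group (SD, n = 4 each), and Xcr1, a chemokine receptor of cross-presenting dendritic cells, at 4.81 ± 0.14 and 4.75 ± 0.10. These levels lay near 4.70, the median of all probe sets, so that these markers gave little signal. Flt3, the growth factor receptor of dendritic cells and their precursors, stood at 6.80 ± 0.36 and 6.60 ± 0.39. Cd209a, which marks monocyte-derived dendritic cells as well as conventional ones, stood at 9.58 ± 0.40 and 9.70 ± 0.40. Of the sort's own 11 monocyte and macrophage genes, 6 had a higher and 5 a lower mean, with a median of 0.01. Of these, 1, the fractalkine receptor gene Cx3cr1 (-0.40 ± 0.17, SE, adjusted p = 0.819 in limma), had an unadjusted p under 0.05, as had 4.03% of all genes in the same direction. Cx3cr1, Blk and Klrd1 were named after their values were seen. The share of dendritic cells among the sorted cells was not measured, and Clec9a was not analysed here.

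The genes whose levels followed Ccr7 most closely over the 8 arrays were picked with the other members left out. Among 2314 genes with a mean of at least 4.70 and an SD over the arrays of at least 0.3, Ccr7 included, the 8 with the highest Pearson r were Scnn1a, H2-Oa, Gstt3, Kit, Ocstamp, Celf3, Pgap3 and Neurl2, with r from 0.90 to 0.94. These r describe 8 arrays that fall into 2 groups, and the genes were picked for them. Pgap3 and Celf3, with means of 4.73 and 4.93 over the arrays, lay near the limit of 4.70, so their levels may be partly background. H2-Oa encodes a chain of H2-O, a regulator of peptide loading on MHC class II, and stood at 7.45, 7.12, 7.60 and 8.12 in sham animals 1 to 4 and between 6.70 and 7.44 in the irradiated group. Kit, the receptor of stem cell factor, is also in the list of dendritic cell identity genes described above. It stood at 5.90, 5.51, 5.94 and 6.63 in sham mice and at 5.20, 5.86, 5.72 and 5.41 in irradiated mice. Ocstamp, needed for the fusion of osteoclasts and giant cells, stood at 8.28, 8.33, 8.32 and 8.87 in sham mice and at 7.47, 8.15, 7.83 and 7.66 in irradiated mice. Sham mouse 4 was the highest array for all 3 genes, as for Ccr7, and irradiated mouse 1 the lowest. All 8 had a lower mean in irradiated mice, by -0.67 to -0.35, which the likeness to Ccr7 favours. The other members were less like Ccr7, with r of 0.51 for Ccl22, 0.40 for Fscn1, 0.20 for Cd83, 0.15 for Relb and 0.02 for Ccl17. With members counted, Ccl22 ranked 273 among the 2313 genes compared with Ccr7, and Relb fell under the SD limit.

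**Figure D4:**
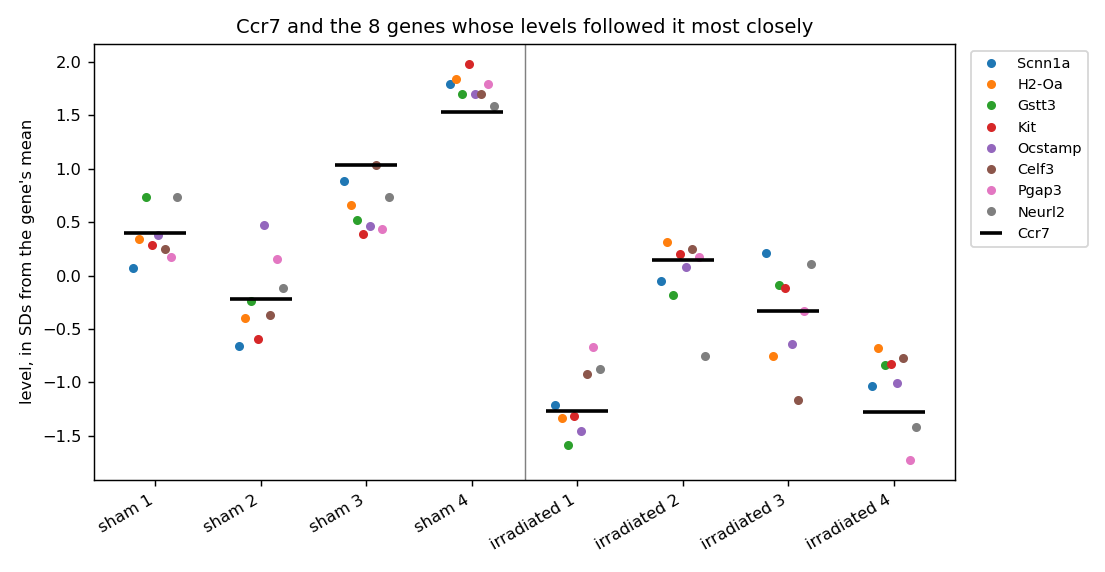
Levels of Ccr7 (black bars) and of the 8 genes most like it (coloured points) on each array, in SDs from each gene's mean over the 8 arrays. Sham mouse 4 is highest for all 9 genes, and irradiated mice 1 and 4 are low.

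H2-Oa also belongs to the 9 measured genes of MHC class II presentation, the step at which mature dendritic cells show peptides to helper T cells. Of these, 8 had a lower mean in irradiated mice (57.8% of all genes were lower), with a median of -0.11. Only H2-Oa (-0.55 ± 0.21, SE, adjusted p = 0.819 in limma) had an unadjusted p under 0.05, as had 4.03% of all genes in the same direction. Among paralogues of the members, 5 of 7 had a higher mean (42.2% of all genes were higher) with a median of 0.02, and none had an unadjusted p under 0.05.

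**Figure D5:**
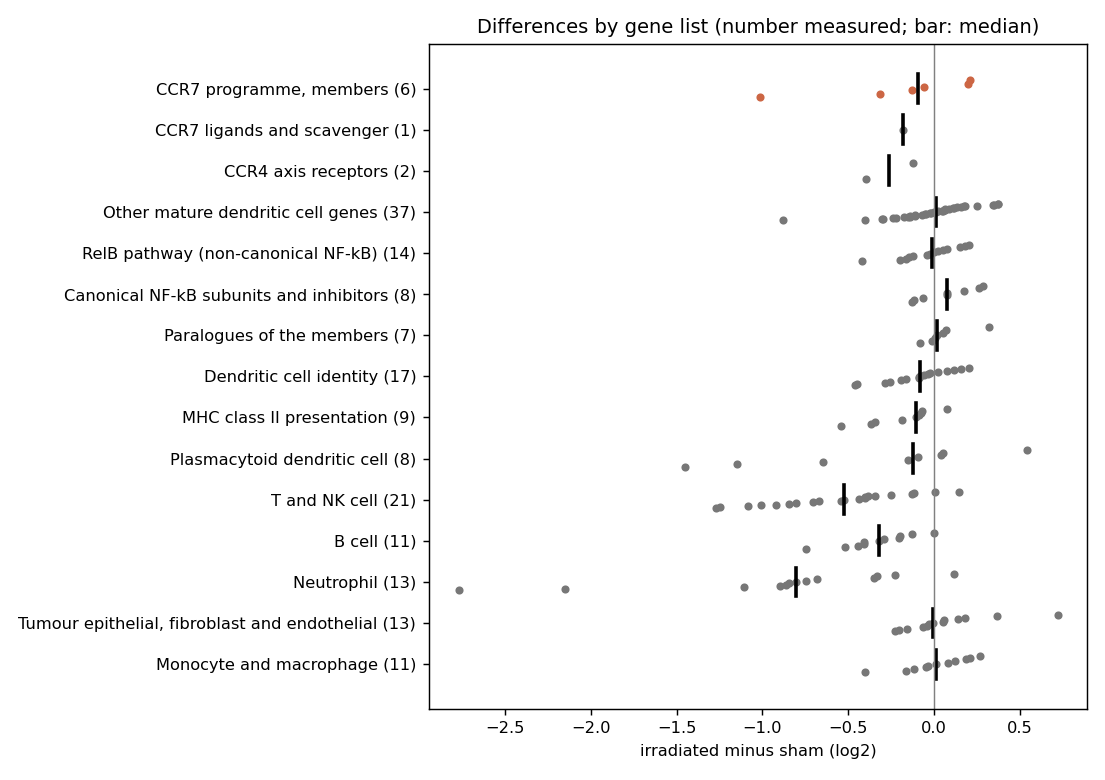
Difference between irradiated and sham mice on the log2 scale for each measured gene (points) of the CCR7 programme and of each other list, with the number measured in brackets and the median as a black bar. Ccr7, at -1.01, lies apart from the other 5 members, while the lists of T and NK cell, B cell and neutrophil markers lie mostly below 0.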

How the data were processed

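RNA of the sorted cells (25 ng per sample) was amplified by ribo-SPIA and hybridised to Affymetrix arrays, per the labels' protocols. The authors deposited log2 values, made with RMA and Partek per the submitters' processing notes; the sources used here do not give versions, settings or genome build, and the log2 scale was read from the values. Groups and mouse numbers came from the sample titles, 1 array per mouse, so precision is limited by the number of arrays. No batches are named in the sources used here. Of 34365 probe sets, 23521 had 1 symbol in the platform annotation, 1814 several and 9030 none; the brightest probe set per symbol left 22180 genes. The comparison used R 4.3.3 and its package limma 3.58.1 (two-sided moderated test, Benjamini-Hochberg over all genes, threshold 0.05), checked on simulated data. Intervals are 95% intervals of that fit. Lists are described by counts and medians without a test. Members, lists and named genes were chosen with earlier results of these data known. The naming rule took the members, 15 ligands, receptors, partners and identity genes, the 3 smallest p in the lists of mature dendritic cell genes and of the RelB pathway, and the 8 genes most like Ccr7; 30 of its 36 genes were measured. RefSeq sequences upstream of transcript starts were matched by symbol for 4 of the 7 members. Alternatives were quantile normalization, median centring, removal of dim genes, averaging of probe sets, a trended robust variance, array weights, all probe sets, the mouse number as a block, and arrays left out. Plots used matplotlib 3.10.9.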

Additional observations from a re-analysis of the deposited data

Results flagged for a closer look

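Among the 60 groups of 4 arrays checked for the 30 genes named, 2 had an array apart from the other 3 by Dixon's 95% criterion, where chance gives about 1 in 20. In the irradiated group, Map3k14 was 6.23 on the log2 scale in mouse 4 and 5.50 to 5.54 in the remaining 3. In the sham group, Ocstamp was 8.87 in mouse 4 and 8.28 to 8.33 in the remaining 3. No group of the 6 members was among them.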

How the results depend on the processing

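Of 102 recomputed differences of the 6 members, 95 kept their direction and 7 turned; the smallest adjusted p was 0.729, so none passed. Ccr7 kept its direction in all 17 alternatives. The turned values were 0.010 for Relb after quantile normalization, -0.40 for Ccl17 and -0.12 for Cd83 with sham mice 2 and 3 left out together, and 4 with 1 array left out. Leaving out 1 array at a time gave -1.24 to -0.81 for Ccr7, -0.67 to 0.092 for Ccl22, -0.14 to 0.47 for Ccl17, -0.021 to 0.38 for Cd83, -0.26 to 0.026 for Fscn1 and -0.09 to -0.03 for Relb. The number of members lower in irradiated mice then ran from 3 to 5, their median difference from -0.15 to 0.02, and the count of genes past the threshold from 0 to 1, the 1 being the histone gene H2ac15 without irradiated mouse 1, named after its value was seen. The cause of these changes was not tested. With the mouse number as a block, Ccr7 differed by -1.01 with an adjusted p of 0.957 in limma, and 0 genes passed. Same-numbered mice are different animals, and their deviations from the group means correlated at -0.28 to -0.14. These values gave no sign of pairing, but they cannot exclude that same-numbered samples were handled together. Among 405 recomputed differences of the other 24 named genes, added after the data were seen, 401 moved by less than the spread between mice and 4 by more (Rel, Zbtb46, Stat4 and Ltb, without sham mice 2 and 3). Signal over background was not available, which limits what low levels show.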
